A study of Mus musculus with 42 samples.

Results

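Substance P, calcitonin gene-related peptide (CGRP) and pituitary adenylate cyclase-activating polypeptide (PACAP) are peptides that sensory neurons store in dense-core vesicles and release from both ends of the axon. The 7 genes described here are 3 peptide precursors and 4 receptor genes of these systems. Tac1 encodes the precursor of substance P and neurokinin A, Calcb encodes beta CGRP, and Adcyap1 encodes PACAP. Tacr1 encodes the neurokinin 1 receptor, which binds substance P and couples to phospholipase C. Calcrl and Ramp1 encode the receptor and the accessory protein that together form the CGRP receptor, which raises cyclic AMP. Adcyap1r1 encodes the PAC1 receptor for PACAP, which couples to cyclic AMP and phospholipase C. In peripheral tissue these peptides dilate vessels and contribute to neurogenic inflammation, and in the central nervous system they modulate transmission from pain-sensing afferents. The genes were chosen by name, as the probe sets annotated to exactly 1 of the 7 symbols. They made up 6 of 8252 genes (7 of 12488 probe sets) on the MG-U74Av2 array, which holds none for Calcb, and 7 of 18194 genes (15 of 45101 probe sets) on Mouse430_2. No single-symbol probe set stood for Calca, the alpha CGRP gene, so CGRP is represented by Calcb alone.

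All 42 samples came from ganglia of BALB/c mice, an inbred strain, kept under normal housing with no treatment or altered allele named. Age and sex are unstated in the sources used. The dorsal root ganglion (DRG) holds spinal sensory neurons and the nodose ganglion (NG) holds vagal ones. On MG-U74Av2, 5 whole DRG and 7 whole NG samples were measured. Neurons collected by laser capture microdissection, about 150 per sample, made up 5 samples of DRG and 5 of NG on MG-U74Av2, and 9 of DRG and 11 of NG on Mouse430_2. The labels do not say by what mark the captured visceral sensory neurons were picked. One label disagrees with this grouping, since the description of all 42 samples, the whole-ganglion ones included, speaks of laser capture. The extraction protocol and the design text name whole ganglia for 12 of them and were followed, and every value for whole ganglia rests on that reading. About 12 µg of RNA was labelled for each array. On MG-U74Av2 the RNA of captured neurons is called amplified, and all other RNA is called total. The latter includes captured neurons on Mouse430_2, and whether their RNA was amplified could not be worked out. All 5 DRG and 5 NG sample numbers of captured neurons on MG-U74Av2 recur on Mouse430_2, so these experiments were not treated as independent. The labels do not tie samples to separate animals. The p-values therefore cover the spread between these samples alone, which may be technical.

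Signals are array intensities scaled to a common trimmed mean on each array type. Differences are on the log2(signal + pseudocount) scale, NG minus DRG, and folds computed on this scale understate the change of dim probe sets. A probe set was tested if enough arrays, no fewer than the size of the smaller group, read it above their own 40th percentile. A difference was called at an adjusted p under 0.05, where every adjusted p is from limma with Benjamini-Hochberg adjustment over all probe sets tested. Before scaling, the trimmed means differed over arrays by 2.33-fold in whole ganglia, 1.46-fold in captured neurons on MG-U74Av2 and 2.38-fold on Mouse430_2. Marker genes matched the ganglion labels: every tested vagal marker was higher in NG, 2 of 2, 2 of 2 and 4 of 4 in the 3 experiments, with Htr3a (a serotonin-gated channel subunit) at 3.02, 3.19 and 3.44. Markers of satellite glia and Schwann cells remained measurable in captured samples. Their summed signal over 8 genes on MG-U74Av2 was 12330 to 16890 there, against 15880 to 20590 in whole ganglia. Apoe alone averaged 7578 and 7748 in captured DRG and NG. In a joint limma fit of captured minus whole samples, 6 of 8 were called below 0 in NG and 1 above. All probe sets there gave 29.2% and 26.2%. In DRG, 3 of 8 were called below 0 and 2 above, against 2017 and 1903 of all 8309 probe sets.

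The precursors were higher in DRG wherever they were measured, and none of the tested receptor probe sets was called in either direction. In whole ganglia 2 of the 4 tested probe sets of these genes were called higher in DRG, and 15.8% of all tested probe sets were. In captured neurons the counts were 2 of 3 on MG-U74Av2, with 11.3% of all probe sets called higher in DRG, and 5 of 7 on Mouse430_2, with 12.5% so called. The 5 calls on Mouse430_2 fell on 3 genes, since Tac1 and Adcyap1 were each read by more than 1 tested probe set. One of them, a dim Tac1 probe set, passed the filter through its DRG arrays, so this count is a description. The count of calls higher in NG was 0 in each experiment by limma, while 19.6%, 10.4% and 9.72% of all tested probe sets were so called in the same order of experiments. Ramp1 in whole ganglia, at an unadjusted p of 0.034 and an adjusted p of 0.0846, was the sole tested receptor probe set with an unadjusted p under 0.05. Probe sets that did not pass the filter numbered 3 of 7, 4 of 7 and 8 of 15, all of receptor genes.

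Tac1 was higher in whole DRG than in whole NG. The 5 DRG samples gave signals of 1309, 1335, 1513, 1566 and 1585 on probe set 102726_at, and the 7 NG samples ran from 482.9 over a median of 593.9 to 1200. The groups did not overlap, as for 8.69% of all tested probe sets in this direction, although NG replicates 039 and 073 came closer to DRG than the other NG samples did. The difference was -1.12 (SE 0.191, 95% interval -1.53 to -0.72, adjusted p = 0.000269), a 2.18-fold higher level in DRG. In bulk samples such as these, fewer cells of a type and less RNA per cell cannot be told apart.

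In captured neurons on MG-U74Av2 the Tac1 gap between the ganglia was wide. DRG samples gave 3514, 3971, 4179, 4338 and 5187. NG samples gave 54.66, 180.4, 273.1, 393.4 and 787.3, so that the brightest NG sample lay far below the dimmest DRG sample. Groups without overlap in this direction occurred for 8.37% of all tested probe sets. The difference was -4.03 (SE 0.464, 95% interval -5.02 to -3.04, adjusted p = 2.39e-05, limma), or 16.3-fold, which ranked 5 among 7583 probe sets ordered from the most DRG-biased. The NG samples differed far more among themselves than the DRG samples did, with a log2 SD of 1.34 against 0.20.

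On Mouse430_2 the main Tac1 probe set, 1416783_at, ran from 3431 over a median of 4393 to 5672 in DRG and from 262.3 over 1090 to 1548 in NG. Again no NG sample reached the DRG range, as for 2.27% of all tested probe sets. The difference was -2.49 (SE 0.306, 95% interval -3.12 to -1.86, adjusted p = 5.87e-07), or 5.63-fold. NG samples 012, 007, 013 and 015 lay at 262.3, 278.2, 315.1 and 389, and the other 7 lay between 957.3 and 1548. A second, dim probe set of Tac1, 1431883_at, was above the 40th percentile on 9 of 9 DRG and 5 of 11 NG arrays, so that it passed the filter only through the group where it was brighter. It averaged 36.44 ± 10.72 (SD, n = 9) in DRG and 17.97 ± 9.183 (SD, n = 11) in NG. Its groups overlapped, its difference was -0.85 (SE 0.23, adjusted p = 0.00799), and its call was lost when the fit kept only sample numbers also on MG-U74Av2 (-0.67, adjusted p = 0.163) or only those absent from it (-0.98, adjusted p = 0.0831). The call was also lost over the numbers shared by both ganglia, with the number as a block (-0.76, adjusted p = 0.1) and without it (-0.76, adjusted p = 0.0513). In each of these 4 fits the count of calls higher in DRG on Mouse430_2 was 4.

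Calcb, measured on Mouse430_2 alone, had the widest ganglion difference of the 3 precursors there. Its signal on 1422639_at ran from 4274 over a median of 5111 to 6577 in the 9 DRG samples and from 75.53 over 432.8 to 1760 in the 11 NG samples. All DRG samples lay above all NG samples, as for 2.27% of all tested probe sets. NG replicate 010 was the highest of its group and replicate 003 the lowest. The difference was -3.73 (SE 0.311, 95% interval -4.36 to -3.09, adjusted p = 6.19e-10), a 13.2-fold higher level in DRG, and ranked 28 of 28107 probe sets from the DRG end. Samples whose numbers are absent from MG-U74Av2 gave -3.62 (SE 0.205) for Calcb, and those whose numbers recur gave -3.88 (SE 0.51).

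Adcyap1 was also higher in DRG, by less than Tac1 in both MG-U74Av2 experiments. In whole ganglia probe set 92200_at gave 1753, 1776, 2156, 2236 and 2289 in DRG and ran from 1079 over a median of 1319 to 2269 in NG. The groups overlapped through NG replicate 073, the highest NG sample. The difference was -0.53 (SE 0.147, 95% interval -0.84 to -0.22, adjusted p = 0.009), or 1.45-fold. In captured neurons the DRG samples gave 4701, 5041, 5139, 5753 and 6071, and the NG samples gave 1593, 1909, 2181, 2253 and 3374. These groups did not overlap, as for 8.37% of all tested probe sets, and the difference was -1.28 (SE 0.16, adjusted p = 5.31e-05), or 2.42-fold.

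Both Adcyap1 probe sets on Mouse430_2 gave close differences. Probe set 1423427_at had no overlap between the ganglia, as for 2.27% of all tested probe sets. It ran from 1400 over a median of 2320 to 3211 in DRG and from 307.4 over 516.5 to 723.4 in NG. Its difference was -2.12 (SE 0.149, 95% interval -2.42 to -1.81, adjusted p = 2.44e-11), or 4.34-fold. Probe set 1441778_at averaged 1006 ± 212.7 (SD, n = 9) in DRG and 230 ± 87.31 (SD, n = 11) in NG, a difference of -2.16 (SE 0.198, adjusted p = 3.46e-09). On the lead probe sets the log2 SD of the NG samples was 0.34 for Adcyap1, 1.05 for Tac1 and 1.08 for Calcb, and on the second probe sets of Adcyap1 and Tac1 it was 0.57 for both.

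**Figure D1:**
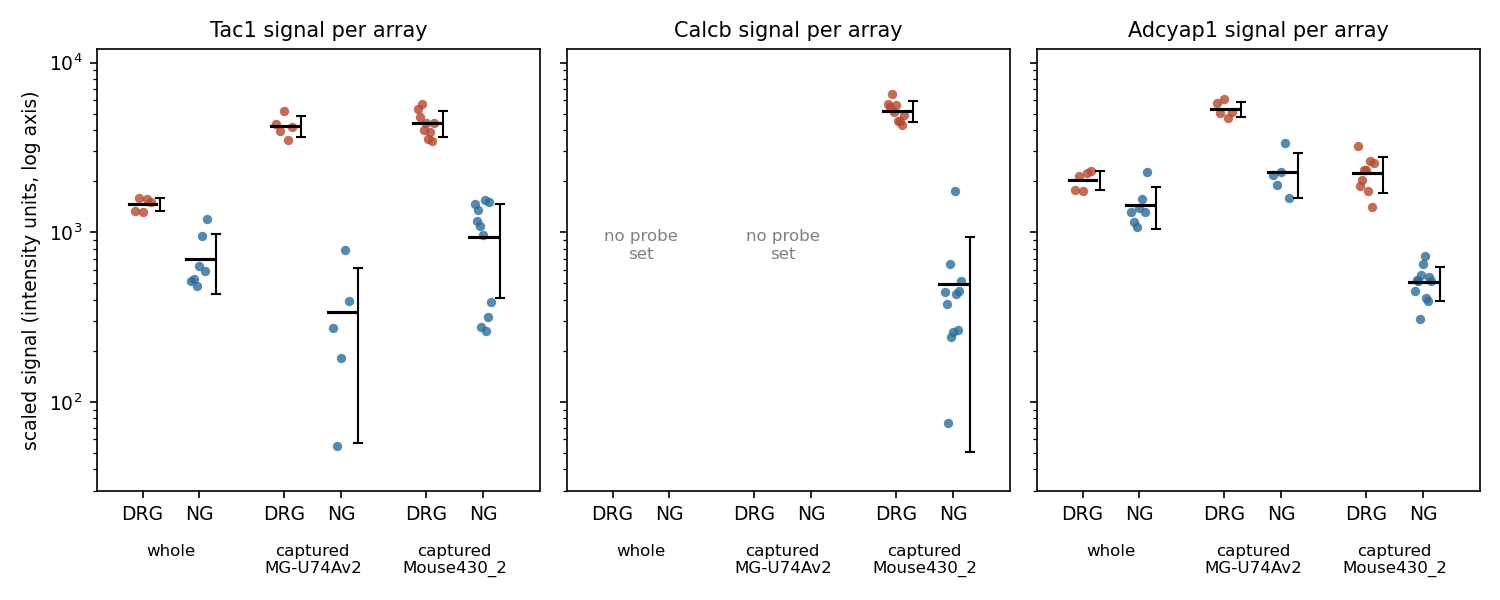
Scaled signal of Tac1, Calcb and Adcyap1 in each array (points, red for DRG and blue for NG), with the group mean as a horizontal line and its SD as a bar, on a log axis; array types are scaled separately. All DRG points lie above all NG points except for Adcyap1 in whole ganglia, where the highest NG sample (2269) lies within the DRG range of 1753 to 2289.

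**Figure D2:**
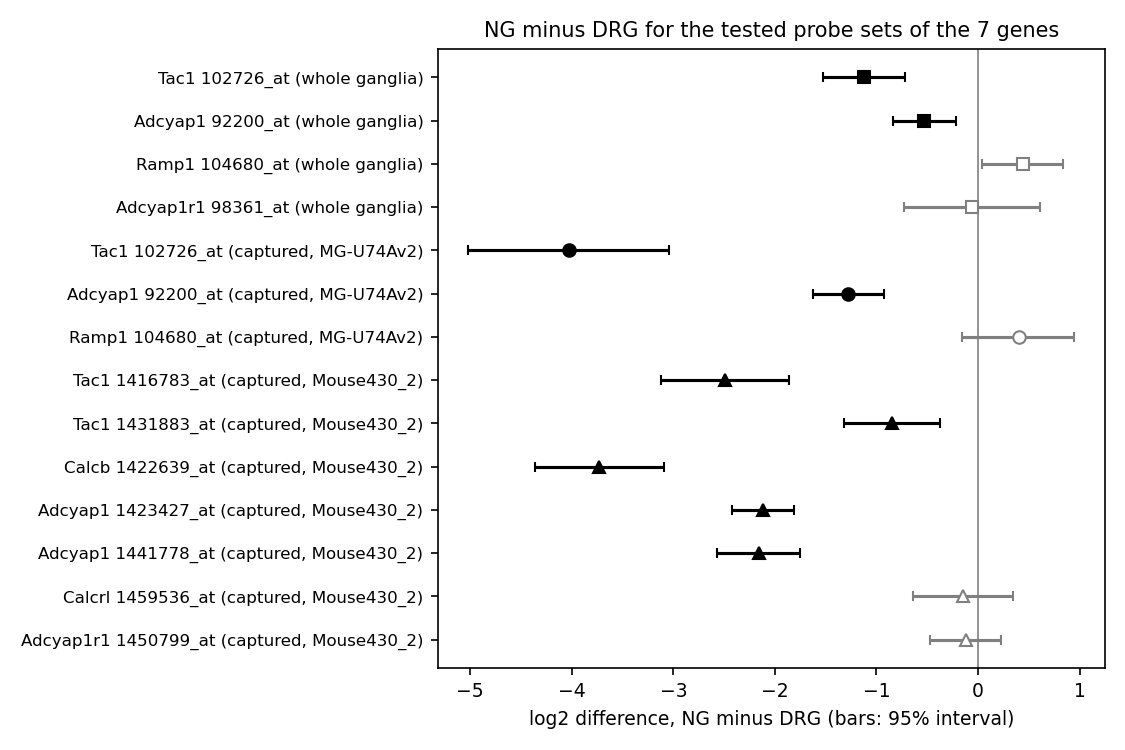
Log2 difference, NG minus DRG, of each tested probe set of the 7 genes (squares whole ganglia, circles captured neurons on MG-U74Av2, triangles captured neurons on Mouse430_2), with 95% intervals; filled black symbols passed an adjusted p of 0.05. Precursor differences run from -0.53 to -4.03, and the open receptor symbols lie between -0.15 and 0.44.

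The 250 bases upstream of the annotated start of Tac1 and Adcyap1 are shown because both precursors were higher in DRG in all 3 experiments. The receptors of PACAP and CGRP raise cyclic AMP, which reaches genes through CREB family factors at cyclic AMP response elements. Of the 7 genes, 6 matched the RefSeq promoter table of build GRCm38.p6, all but Calcb. Capitals mark the letters of the core of the cyclic AMP response element, TGACG, on either strand (CGTCA on the strand shown). Both sequences are on the plus strand, 5′ to 3′, at chr6:7554811-7555060 for Tac1 and chr17:93198918-93199167 for Adcyap1, and both end at the base before the annotated start.
Tac1: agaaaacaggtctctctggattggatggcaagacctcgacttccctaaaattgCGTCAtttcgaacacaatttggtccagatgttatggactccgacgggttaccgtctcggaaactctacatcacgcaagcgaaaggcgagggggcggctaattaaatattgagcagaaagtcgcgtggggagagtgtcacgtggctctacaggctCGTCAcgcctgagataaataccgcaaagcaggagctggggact
Adcyap1: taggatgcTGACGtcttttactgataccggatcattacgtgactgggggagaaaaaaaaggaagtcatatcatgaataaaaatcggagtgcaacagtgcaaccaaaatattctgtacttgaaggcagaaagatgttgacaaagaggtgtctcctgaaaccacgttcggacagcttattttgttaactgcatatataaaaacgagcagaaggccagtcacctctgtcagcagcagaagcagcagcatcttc

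The Tac1 window held 2 such cores, at 197 to 193 and at 43 to 39 bases before the start, both as CGTCA. The Adcyap1 window held 1 core, at 242 to 238 bases before the start, and the letters TATAAA at 58 to 53 bases before it. A second annotated start of Adcyap1, whose window overlaps this one, placed the same core at 91 to 87 bases before it. Among all 32851 windows of the same length, 17.8% held a core on either strand, 12.4% held TATAAA on either strand, and 1.55% held the full palindrome TGACGTCA, which contains the core. Of the receptor genes, the Tacr1 window held 1 core and those of Calcrl, Ramp1 and Adcyap1r1 held 0. These are letter matches in one window per start, and binding was not measured.

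Whole and captured samples share the MG-U74Av2 array, which allowed the same probe sets to be compared between them in a joint limma fit of 22 samples. Tac1 was higher in captured than in whole DRG samples (4238 ± 614.1, SD, n = 5, against 1461 ± 130.5, n = 5) and lower in captured than in whole NG samples (337.8 ± 280.3, n = 5, against 700.1 ± 270.4, n = 7). The change with capture was 1.52 in DRG (SE 0.39, adjusted p = 0.00243, where 22.9% of all probe sets were called above 0) and -1.38 in NG (SE 0.361, adjusted p = 0.00231, where 29.2% were called below 0). Whole and captured DRG ranges did not overlap, whereas captured NG replicate 010, at 787.3, lay within the whole NG range. The share of all probe sets without such overlap was not counted. Without captured NG replicate 007, the dimmest sample, the NG change was -0.89 (adjusted p = 0.0067).

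The ganglion difference of Tac1 thus differed between captured neurons and whole ganglia by -2.90 (SE 0.531, adjusted p = 0.000407), where 10.5% of all probe sets were called below 0. Adcyap1 took another course, since it was higher after capture in both ganglia. Its change with capture was 1.39 in DRG (SE 0.17, adjusted p = 2.63e-07) and 0.64 in NG (SE 0.157, adjusted p = 0.00116, where 26.2% were called above 0). The difference of its ganglion differences was -0.74 (SE 0.231, adjusted p = 0.0245). This call was lost without captured NG replicate 014 (-0.63, adjusted p = 0.0523) and when arrays were scaled to one median (-0.62, adjusted p = 0.0797), left unscaled (-0.45, adjusted p = 0.444) or weighted (-0.60, adjusted p = 0.0509).

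The 4 groups on MG-U74Av2 were ordered by Tac1 signal as captured DRG, whole DRG, whole NG and captured NG. The first 3 groups were separated without overlap, and whole and captured NG overlapped in range. For Adcyap1 the order was captured DRG at 5341 ± 557.4 (SD, n = 5), captured NG at 2262 ± 673.7 (n = 5), whole DRG at 2042 ± 258 (n = 5) and whole NG at 1440 ± 398.5 (n = 7). Captured DRG stood apart, and the ranges of captured NG and whole DRG overlapped. How many of all probe sets were separated in these ways was not counted, so these orders are a description.

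Capture and RNA amplification cannot be told apart in these data, because captured RNA on MG-U74Av2 is called amplified and whole-ganglion RNA is not. The log2 ratio of 3′ to 5′ beta actin control signal is a measure of RNA length. It was 2.80 ± 0.08 (SD, n = 5) in whole DRG and 2.94 ± 0.40 (n = 7) in whole NG. In captured samples on MG-U74Av2 it was 5.45 ± 0.18 (n = 5) in DRG and 5.82 ± 0.23 (n = 5) in NG. Captured samples on Mouse430_2, whose RNA is called total, gave 5.61 ± 0.27 (n = 9) in DRG and 5.71 ± 0.37 (n = 11) in NG. On MG-U74Av2 this ratio nearly coincides with capture, so a fit with it as a covariate cannot separate them. In that fit no change with capture was called for Tac1 (1.24 in DRG, adjusted p = 0.776, and -1.69 in NG, adjusted p = 0.645). The Tac1 SEs were 1.47 and 1.58, against 0.39 and 0.361 without the covariate. Adcyap1 was not called either (1.11, adjusted p = 0.484, and 0.34, adjusted p = 0.857). These lost calls decide nothing about the part of RNA length. The interactions kept their calls with the covariate. Endothelial markers summed to 1115 to 1565 in whole DRG and 1644 to 3197 in whole NG, and to 891.8 to 1218 and 612.7 to 1199 after capture. Their part in the Tac1 and Adcyap1 results was not tested.

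Samples with the same number could be set side by side on both array types, although the labels do not say that a number marks 1 RNA. In NG the Tac1 order of the 5 shared numbers was the same on the lead probe sets of both. Replicates 007, 008, 003, 014 and 010 gave 54.66, 180.4, 273.1, 393.4 and 787.3 on MG-U74Av2. On Mouse430_2 the same numbers gave 278.2, 957.3, 1358, 1517 and 1548. The dim Tac1 probe set 1431883_at did not keep this order, with 010 lowest (6.184) and 007 highest (27.83) of these numbers. Replicate 010 was also the highest of the NG samples for the lead Adcyap1 probe set on both arrays (3374 and 723.4) and for Calcb (1760). On the second Adcyap1 probe set, 1441778_at, replicate 010 read 258.7 and replicate 008 was highest at 350.8. In DRG the Tac1 orders differed, with replicate 008 highest on MG-U74Av2 (5187) and replicate 003 highest among the same 5 numbers on Mouse430_2 (4808).

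**Figure D3:**
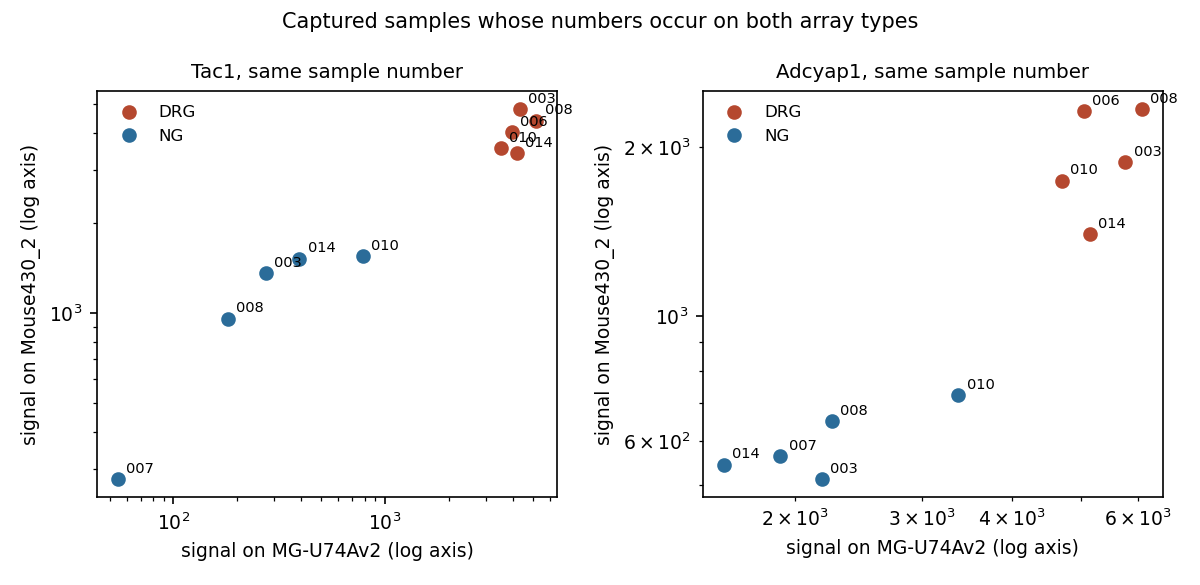
Tac1 (left) and Adcyap1 (right) signal of captured samples whose numbers occur on both array types, MG-U74Av2 on the horizontal and Mouse430_2 on the vertical log axis, each point labelled with its sample number. Lead probe sets are shown, and NG samples (blue) keep 1 order for Tac1, from 007 (54.66 and 278.2) to 010 (787.3 and 1548), and lie apart from DRG samples (red).

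The precursors were compared with each other across samples within each group of 6 or more, over 7 pairs in all. In whole NG, Tac1 and Adcyap1 rose together over the 7 samples (Pearson r = 0.94, exact permutation p = 0.00317, adjusted over the 7 pairs 0.0111). Spearman's rank correlation was 0.89 (exact permutation p = 0.0123, adjusted 0.0431), and r was 0.78 without the 2 samples farthest from the Tac1 median. In captured DRG neurons on Mouse430_2, Tac1 and Calcb rose together over 9 samples (r = 0.93, exact permutation p = 0.000402, adjusted 0.00282). Spearman's rank correlation was 0.92 there (exact permutation p = 0.00131, adjusted 0.00918), and r was 0.84 without the 2 farthest samples. All pairs share an array, so array-wide factors that scaling did not remove enter both genes.

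The other 5 pairs did not pass after adjustment. In the 9 captured DRG samples r was 0.52 for Tac1 and Adcyap1 (exact permutation p = 0.151, adjusted 0.352) and 0.36 for Calcb and Adcyap1 (exact permutation p = 0.335, adjusted 0.586). In the 11 captured NG samples on Mouse430_2 r was 0.17 for Tac1 and Calcb, 0.26 for Tac1 and Adcyap1 and 0.10 for Calcb and Adcyap1 (permutation p = 0.608, 0.445 and 0.773). Without the 2 samples farthest from the median of the first gene, the last of these turned to -0.56, and the other 4 pairs gave 0.13 to 0.55. NG replicate 003 shows this for Tac1 and Calcb, with the lowest Calcb signal of the group, 75.53, beside a Tac1 signal of 1358. Whether the correlation of a pair differed between DRG and NG was not tested.

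**Figure D4:**
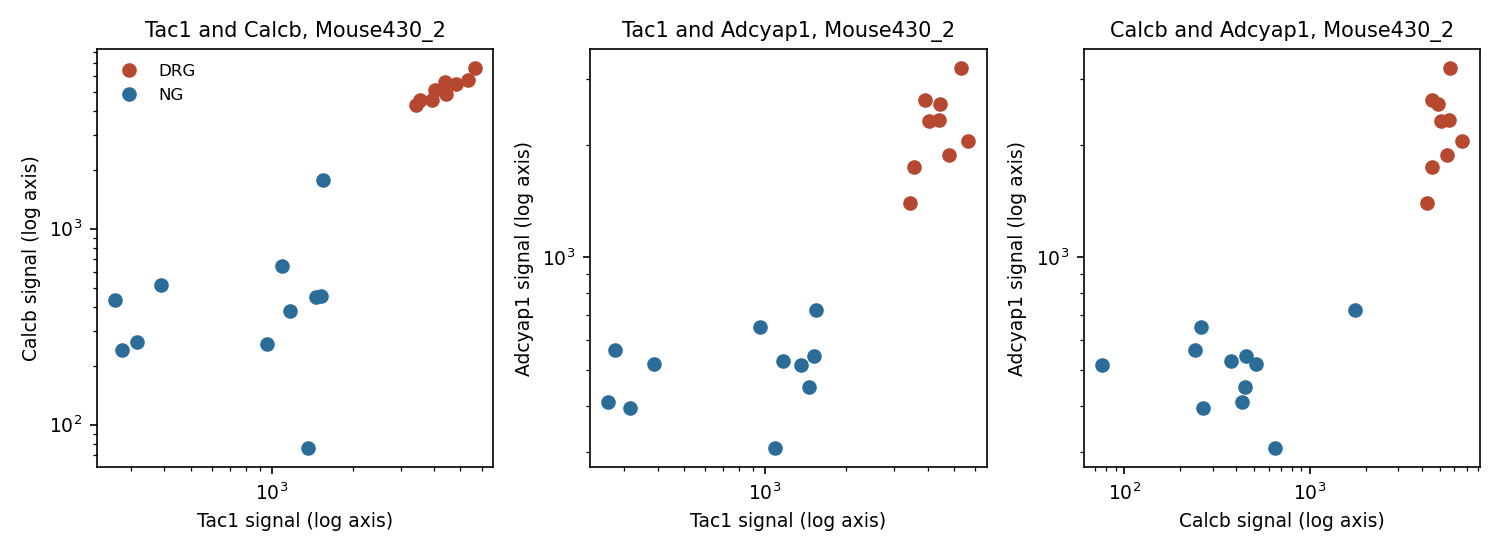
Signals of Tac1, Calcb and Adcyap1 against each other in captured samples on Mouse430_2, on log axes, 1 point per sample, red for DRG and blue for NG. Tac1 and Calcb rise together among the 9 DRG samples (r = 0.93) and r is 0.17 among the 11 NG samples, where Calcb spans 75.53 to 1760.

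Genes that followed each precursor from sample to sample were sought among 13972 genes on Mouse430_2, after subtracting the group mean from each log2 value. Over the 20 samples the Pearson r with Tac1 was highest for Inpp5e (0.81), Sulf1 (0.79), Adcy7 (0.78), Mpp7 (0.78) and Mycbp2 (0.77). With Calcb it was highest for Cebpg (0.79), Cfap300 (0.77), Ints8 (0.75), A530047J11Rik (0.74) and Tgfb2 (0.73), and with Adcyap1 for Olfm1 (0.83), Fem1b (0.81), Syt4 (0.80), Pds5b (0.78) and Stard4 (0.77). These are the highest of many values and describe these samples alone. Of the 5 that followed Tac1, Adcy7, an adenylyl cyclase, also differed widely between the ganglia (1467 in DRG and 98.89 in NG, -4.44, SE 0.486, adjusted p = 8.64e-08). Within the 9 DRG samples r with Tac1 was 0.05 for Sulf1 and 0.46 for Adcy7, against 0.91 and 0.81 within the 11 NG samples. For the 5 genes that followed Calcb it was 0.09 (Tgfb2) to 0.49 (Cebpg) within DRG and 0.75 to 0.86 within NG. The genes were picked by r over all 20 samples. In these, Tac1 and Calcb varied more within NG (log2 SD 1.05 and 1.08) than within DRG (0.25 and 0.20). The picking thus favours genes with a high r within NG, and a difference in r between the ganglia was not tested. Syt4, a synaptotagmin of secretory vesicles, followed Adcyap1 in both ganglia (0.88 in DRG and 0.85 in NG) while its own level was higher in NG (0.86, SE 0.224, adjusted p = 0.00572).

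Tacr1 and Calcrl lay below the 40th percentile on most arrays, as did Ramp1 on Mouse430_2, where Adcyap1r1 was brighter. Tacr1 was above the 40th percentile of the array on 0 of 22 MG-U74Av2 arrays, where 94635_at ran from 11.32 to 30.49, and on 1 of 9 DRG and 3 of 11 NG arrays on Mouse430_2. Calcrl on 97795_at was above it on 0 of 22 arrays, with signals from 1.061 to 14.63. A Mouse430_2 probe set of Calcrl, 1459536_at, passed the filter with 13.78 to 66.38 in DRG and 10.36 to 35.16 in NG, and did not pass the test (-0.15, SE 0.24, 95% interval -0.64 to 0.34, adjusted p = 0.726). At such levels a low signal cannot be told from background, and the absence of these receptors from the ganglia is not shown.

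Ramp1 on 104680_at lay around the 40th percentile and did not pass the test in either experiment. In whole DRG it gave 26.94, 34.24, 34.36, 40.06 and 45.97, and in whole NG it ran from 29.51 over a median of 55.05 to 75.79. The groups overlapped, and the difference was 0.44 (SE 0.191, 95% interval 0.04 to 0.84, adjusted p = 0.0846), which passed without NG replicate 020 (0.55, adjusted p = 0.0212). It was above the 40th percentile on 2 of 5 DRG and 6 of 7 NG arrays, and in captured samples on 1 of 5 and 5 of 5, so that it entered both tests through the NG arrays, where it was brighter. In captured DRG samples it gave 12.2, 33.05, 35.39, 36.48 and 48.8, and in captured NG samples 37.5, 38.34, 44.03, 45.49 and 60.82. The difference of 0.40 (SE 0.259, adjusted p = 0.301) was within the spread of the samples. None of the 3 Ramp1 probe sets on Mouse430_2 passed the filter.

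Adcyap1r1 was the receptor gene with a probe set above the 40th percentile on all 20 Mouse430_2 arrays. That probe set, 1450799_at, ran from 66.58 over a median of 82.47 to 115.1 in DRG and from 50.36 over 79.5 to 118 in NG. The ranges overlapped nearly in full, and the difference was -0.12 (SE 0.171, 95% interval -0.47 to 0.23, adjusted p = 0.691). On MG-U74Av2, 98361_at gave 11.04, 26.44, 49.06, 54.56 and 55.39 in whole DRG and ran from 13.99 over 36.77 to 64.97 in whole NG (-0.06, SE 0.318, adjusted p = 0.903). In captured neurons there it ran from 17.72 to 53.35 and did not pass the filter. The 3 other probe sets of this gene did not pass the filter in any experiment. When the filter was dropped, 0 of the 15 tests of receptor probe sets that it had removed were called by limma, and 1 had an unadjusted p under 0.05, Calcrl 1418489_a_at on Mouse430_2 (-0.63, p = 0.0206, adjusted p = 0.112).

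**Figure D5:**
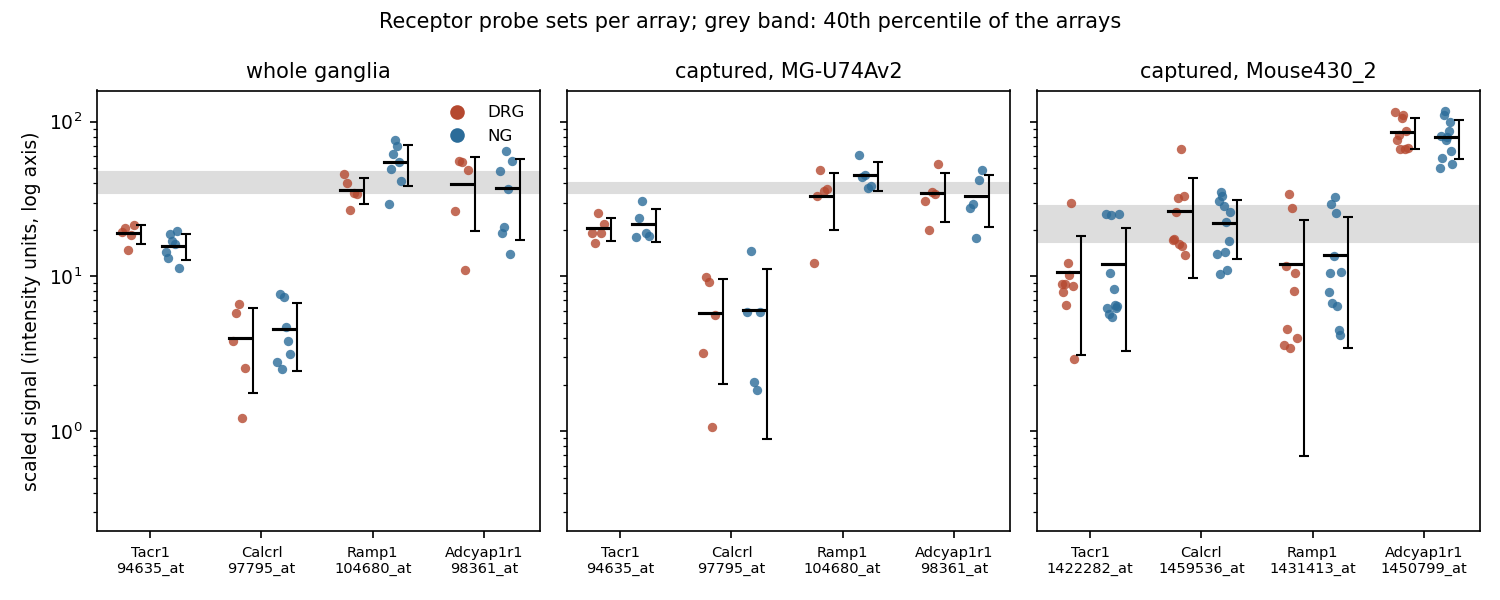
Scaled signal of the brightest probe set of Tacr1, Calcrl, Ramp1 and Adcyap1r1 in each array (red DRG, blue NG), with group mean and SD, on a log axis; the grey band spans the 40th percentiles of the arrays. Tacr1 and Calcrl lie below the band on MG-U74Av2, and Adcyap1r1 lies above it in all 20 Mouse430_2 samples, at 50.36 to 118.

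The families of these genes hold further ligands and receptors, of which 4 of 11, 2 of 11 and 9 of 14 measured genes passed the filter in the 3 experiments. On Mouse430_2, 1 of the 9 was called higher in NG and 1 higher in DRG, close to the shares over all probe sets (9.72% and 12.5%), and none was called in the other experiments. Vip, the precursor of vasoactive intestinal peptide, which shares receptors with PACAP, averaged 269.3 ± 165.1 (SD, n = 11) in NG and 29.3 ± 7.55 (n = 9) in DRG (2.72, SE 0.261, adjusted p = 7.75e-09), opposite to Adcyap1. It did not pass the filter on MG-U74Av2. Ramp3, which pairs with Calcrl to bind adrenomedullin, averaged 102.6 ± 38.58 in DRG and 29.86 ± 9.381 in NG (-1.53, SE 0.217, adjusted p = 5.67e-06). Ramp3 was not called on MG-U74Av2 (-0.49 in whole ganglia, adjusted p = 0.147, and -0.70 in captured neurons, adjusted p = 0.133). Among the tachykinin genes on Mouse430_2, the receptor Tacr3 differed by 1.05 (SE 0.436, adjusted p = 0.0866), Tacr2 by 0.08 and Tac4 by 0.12, and none was called.

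The remaining relatives tested on Mouse430_2 were Ramp2 (0.04), Adm (-0.13), Iapp (0.53, adjusted p = 0.127) and Crcp (0.13), none of them called. Crcp, named as a component of CGRP receptor signalling, was not called in whole ganglia (0.32, adjusted p = 0.0672) or captured neurons on MG-U74Av2 (0.22, adjusted p = 0.385) either. Ramp2 (0.00) and Tacr2 (-0.11) were also tested in whole ganglia and not called. Tac2, Calcr, Adm2, Vipr1 and Vipr2 did not pass the filter in the experiments where they were measured.

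Genes that process and pack peptide precursors moved in both directions. Of 11 tested in whole ganglia 7 were called higher in NG (19.6% of all probe sets) and 3 higher in DRG (15.8%), with a median of 0.36 against 0.05 over all probe sets. Pcsk1, the prohormone convertase that cleaves precursors, was higher in NG in all 3 experiments (1.92, 0.70 and 0.67, adjusted p = 4.83e-09, 0.013 and 0.0197). Pam, which amidates the C terminus of substance P, CGRP and PACAP, was higher in whole NG (1.71, adjusted p = 0.00851). It was not tested in captured neurons on MG-U74Av2 and was not called on Mouse430_2 (-0.30, adjusted p = 0.342). Scg5, a chaperone of convertase 2, was higher in whole NG (0.71) and was not called in captured neurons (0.21 on MG-U74Av2 and 0.36 on Mouse430_2).

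In captured neurons 2 of 10 genes of this list were called higher in NG and 2 higher in DRG on MG-U74Av2 (10.4% and 11.3% of all probe sets), with medians of 0.04 for the list and 0.05 overall. On Mouse430_2 these counts were 3 and 4 of 13 (9.72% and 12.5%), with medians of -0.25 and -0.05. The granin Chgb, a vesicle cargo protein, was higher in DRG in all 3 experiments (-0.60, -1.13 and -0.72). Scg2, another granin, was called in opposite directions, higher in NG in whole ganglia (0.36, adjusted p = 0.00493) and, after capture, higher in DRG (-0.79 on MG-U74Av2 and -0.71 on Mouse430_2). Pcsk1n, an inhibitor of convertase 1, was higher in NG in whole ganglia (0.59, adjusted p = 0.00129) and on Mouse430_2 (0.90, adjusted p = 0.000336), and was not called in captured neurons on MG-U74Av2 (0.00, adjusted p = 0.995). Scg3 was higher in DRG in whole ganglia (-1.48) and on Mouse430_2 (-0.66), and was not called in captured neurons on MG-U74Av2 (0.09).

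Of the peptidases that break these peptides down, 1 of 4, 1 of 3 and 2 of 5 tested were called, all higher in DRG, where 15.8%, 11.3% and 12.5% of all probe sets were. The list medians were -0.26, 0.25 and 0.16. Mme, or neprilysin, which cleaves substance P, averaged 84.52 ± 41.59 (SD, n = 9) in DRG and 33.44 ± 31.65 (n = 11) in NG on Mouse430_2 (-1.25, SE 0.359, adjusted p = 0.0119). On MG-U74Av2 it was never above the 40th percentile. The lead probe set of Ide, a metallopeptidase, was higher in DRG in all 3 experiments (-0.59, -0.57 and -0.78), while another of its 3 probe sets in whole ganglia was called higher in NG. In captured neurons on MG-U74Av2 the Ide call held in 3 of 10 limma fits that each left out 1 sample (highest adjusted p = 0.0971).

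Genes for the proteins that carry receptor signals inside the cell were called in both directions, with 4 of 10 tested higher in whole NG and 2 of 10 higher in whole DRG. The counts were 3 and 1 of 9 in captured neurons on MG-U74Av2 and 6 and 2 of 14 on Mouse430_2. Over all probe sets the shares were 19.6% and 15.8%, 10.4% and 11.3%, and 9.72% and 12.5%, NG first. The list medians were -0.10, 0.22 and 0.33, against 0.05, 0.05 and -0.05 over all probe sets. Plcb3, a phospholipase C isoform downstream of Gq-coupled receptors, was higher in NG throughout (0.82, 1.40 and 1.28). Plcb4 was higher in NG on Mouse430_2 on its lead probe set (1.02), the 1 called of 3 tested. The receptor adaptor Arrb2 was higher in NG there on 2 of 2 probe sets (lead 1.60, adjusted p = 7.31e-10). By contrast, the lead probe set of Arrb1 was higher in DRG in all 3 experiments (-0.36, -0.69 and -0.57). Prkacb, a catalytic subunit of the cyclic AMP-dependent kinase, was higher in DRG in whole ganglia (-0.51) and higher in NG in captured neurons (0.82 and 0.77).

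Markers of several cell classes also differed between the ganglia. Of the nociceptor markers, 2 of 2, 1 of 2 and 4 of 5 tested were called higher in DRG and 0 higher in NG (15.8%, 11.3% and 12.5% of all probe sets were higher in DRG). Their summed signal on Mouse430_2 ran from 4587 to 7531 in DRG and from 907 to 2911 in NG, over 5 genes. Gfra3, a receptor of peptidergic nociceptors, differed by -1.26, -3.48 and -3.30, while the sodium channel gene Scn10a differed by -0.54 in whole ganglia and by 0.02 and -0.04 in captured neurons, where it was not called. Markers of large-diameter afferents, another neuron class, were also higher in DRG, for 2 of 4, 3 of 4 and 4 of 5 tested, with medians of -0.46, -1.86 and -1.60, and 1, Runx3, was higher in NG on Mouse430_2 (0.75). Their sums on Mouse430_2 ran from 6714 to 10510 in DRG and from 2432 to 3489 in NG. Glial markers were called higher in DRG for 2 of 8 genes in whole ganglia, where 1 was higher in NG. In captured neurons they were so called for 3 of 8 genes on MG-U74Av2 and 4 of 9 on Mouse430_2, with 0 higher in NG. Over all probe sets, 15.8%, 11.3% and 12.5% were called higher in DRG. The sums of glial markers overlapped in whole ganglia (15880 to 19940 in DRG and 16180 to 20590 in NG). Their sums did not overlap between captured groups (14470 to 16890 in DRG and 12330 to 13510 in NG on MG-U74Av2, and 13660 to 16450 against 10830 to 13500 on Mouse430_2).

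Smooth muscle and pericyte markers were called higher in DRG for 2 of 4, 1 of 2 and 3 of 4 tested genes, and 0 were called higher in NG. Over all probe sets 15.8%, 11.3% and 12.5% were called higher in DRG, and 19.6%, 10.4% and 9.72% higher in NG. The summed signals of these markers on Mouse430_2 were 1274 to 2753 in DRG and 250.2 to 684.6 in NG. Endothelial markers were higher in whole NG for 6 of 9 genes and were called in both directions after capture (1 and 2 of 7, then 2 and 1 of 10, NG first). Of these classes, never above the 40th percentile were Myh11 and Tek in captured neurons on MG-U74Av2 and Tie1 on Mouse430_2. Macrophage markers went the other way, with 3 of 6, 2 of 4 and 1 of 3 tested genes called higher in NG and 0 higher in DRG. The part of these other cell classes in the precursor differences was not tested.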

How the data were processed

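RNA of DRG and NG was measured on Affymetrix arrays. Per the submitters' processing notes the authors used MAS5, of unstated version, and deposited 1 linear signal intensity for each probe set on each array. Each array was scaled to a common 2% trimmed mean per array type before taking log2(signal + pseudocount), with the experiment's 20th percentile as pseudocount: 11.7, 11 and 7.48 for whole ganglia, captured MG-U74Av2 and captured Mouse430_2, and 11.4 for the joint fit of MG-U74Av2. Tested were probe sets that enough arrays, no fewer than the smaller group's size, read above their 40th percentile, 7698, 7583 and 28107 in number. Tests were two-sided, with limma 3.58.1 (trend and robust) in R 4.3.3, after a check on simulated data; permutation tests used scipy 1.17.1. Intensities carry no read depth, so the number of arrays limits the precision. Groups came from sample titles. Every probe set of the 7 genes is reported, and the brightest by mean log2 signal leads. All measured family relatives are named, as are the 5 genes most like each precursor. Of the other lists, genes were named from the up to 3 per direction with the largest called differences, and not all of these are given. Most genes so named in one experiment are given in the others too. Genes and lists were chosen with earlier results of these data known. Alternatives covered scaling, pseudocount, filter, variance model, array weights, RNA quality, sample subsets and each sample left out.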

Additional observations from a re-analysis of the deposited data

Results flagged for a closer look

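The ganglion difference of Tac1 differed between captured neurons and whole ganglia by -2.90 on the log2 scale, and that of Adcyap1 by -0.74, both by the interaction term of the joint limma fit. Among 43 groups of 4 to 10 samples examined for a sample far from the others, 3 held one, where chance gives about 1 in 20, and all 3 were dim receptor probe sets in captured DRG neurons on Mouse430_2. Ramp1 1417481_at read 34.89 in replicate 006 against 3.343 to 8.251 in the others. Tacr1 1422282_at read 29.73 in replicate 011 against 2.905 to 12.2. Adcyap1r1 1429022_at read 61.7 in replicate 005 against 3.036 to 11.46. The 11 captured NG samples on Mouse430_2 exceeded this group size and were not examined. Among them Adcyap1r1 1429022_at read 81.28 in replicate 014. None of these probe sets passed the filter, and none enters a call.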

How the results depend on the processing

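The NG minus DRG calls of Tac1, Calcb and Adcyap1 on their lead probe sets kept direction and side of the threshold in every alternative run, 23 each on MG-U74Av2 and 34 on Mouse430_2. Tac1 ranged from -1.49 to -1.04 in whole ganglia, in captured neurons from -4.78 to -3.53 (MG-U74Av2) and from -2.92 to -2.04 (Mouse430_2), Calcb from -3.94 to -3.50, and Adcyap1 from -0.90 to -0.47, -1.76 to -1.16 and -2.58 to -1.67. The correlations of pairs also kept their side. The actin ratio, which nearly coincides with capture in the joint fit, moved captured minus whole DRG to 1.24 for Tac1, 1.11 for Adcyap1, 0.23 for Ramp1 and 2.35 for Adcyap1r1, and NG to -1.69, 0.34, 0.22 and 2.56, with 0 of these genes called in either direction. Unscaled arrays gave Tac1 1.23 in DRG, leaving 1 gene called. The interaction of Adcyap1 was -0.62 with one median, -0.45 unscaled and -0.60 with array weights, leaving 1 gene called in each, and from -0.90 to -0.63 over fits without 1 sample.

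Values of uncalled receptors and relatives changed sign, as did 1 called marker, Prph. The captured minus whole NG value of Adcyap1r1 was 0.09 with quantile normalization, 0.07 with one median and 0.13 with weights, and the interaction of Ramp1 was 0.08, 0.06 with one median and 0.15 unscaled. Adcyap1r1 gave -0.01 in the interaction at pseudocount 1, 0.10 in whole ganglia with the actin ratio and 0.02 on Mouse430_2 with one median. Calcrl gave 0.22 for numbers absent from MG-U74Av2. In whole ganglia Crcp was -0.04 unscaled, Prph, a neuron marker called higher in NG (0.32, adjusted p = 0.014), was -0.06 unscaled, Ramp2 0.00 at pseudocount 1, and Tacr2 0.06 and Ramp2 0.08 with weights. On Mouse430_2 unscaled values were Tac4 0.00, Tacr2 -0.01, Ramp2 -0.09 and Crcp -0.01. Numbers also on MG-U74Av2 gave Tac4 -0.16, Tacr2 -0.03 and Ramp2 -0.31, and the others gave Adm 0.24 and Crcp -0.14. Over fits that each left out 1 sample, Adcyap1r1 ranged from -0.33 to 0.07 in whole ganglia, -0.33 to 0.06 for captured minus whole DRG, -0.19 to 0.08 for NG and -0.13 to 0.27 in the interaction, where Ramp1 ranged from -0.26 to 0.08 and the count of genes called from 1 to 2. Ramp1 ranged from -0.27 to 0.07 for captured minus whole DRG and 0.36 to 0.55 in whole ganglia, where the count of these genes called higher in NG was 0 to 1. In whole ganglia Ramp2 ranged from -0.09 to 0.12 and Tacr2 from -0.33 to 0.11, and on Mouse430_2 Calcrl from -0.22 to 0.01, Adm -0.30 to 0.03, Ramp2 -0.05 to 0.12 and Tacr2 0.00 to 0.18. Tacr3 passed on Mouse430_2 without DRG replicate 003 (1.27, adjusted p = 0.0357, limma), and Crcp passed in whole ganglia without DRG replicate 019 (0.39, adjusted p = 0.0391) or NG replicate 073 (0.41, adjusted p = 0.0066). Some called list genes lost their calls in such fits. In captured neurons on MG-U74Av2 calls held in 3 of 10 fits for Ide, 4 for Chga, Eng and Isl1, 5 for Fabp7 and 6 for Rgs5. They held in 7 of 20 for Acta2 and Uchl1 on Mouse430_2, and in 5 of 12 for Pmp22 and Tubb3 in whole ganglia. Over the other alternatives, 102 of 1374 results of list genes were weaker, 18 reversed and 5 stronger.

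No pairing of the ganglia by sample number was seen: correlations of same-numbered deviations ran from -0.11 to 0.11 over 4 pairs on MG-U74Av2 and -0.15 to 0.16 over 7 on Mouse430_2. Such few pairs cannot show that equal numbers mark different animals. With the number as a replicate block Tac1 was -3.55 (adjusted p = 0.000171) and Adcyap1 -1.25 on MG-U74Av2. On Mouse430_2 the block gave Tac1 -2.06, Calcb -3.64, Adcyap1 -1.98, Tacr2 -0.01 and Ramp2 -0.11, and the same samples without it, a fit added after seeing the data, gave the same values; the dim Tac1 probe set lost its call in both. Whole ganglia share 1 number, so no paired analysis was possible there.
The median shift of all probe sets by scaling reached -0.289 in unscaled whole ganglia against 0.051, and -0.173 against -0.051 on Mouse430_2. The share of calls above 0 was 55.3% in whole ganglia, 40% with one median and 11.9% unscaled, and 43.7%, 63.5% and 24.4% on Mouse430_2, and 47.9%, 50.7% and 35.4% in captured neurons on MG-U74Av2. Counts of all probe sets that moved by over 1.5 times were, for whole ganglia higher in NG, 227 unscaled against 1508. Those of captured neurons on MG-U74Av2 higher in NG were 386 unscaled, 351 with the actin ratio and 467 with the block against 792, and higher in DRG 488 with the actin ratio against 860. On Mouse430_2 they were 2210 with one median and 2311 with the block against 3517 higher in DRG, and 1016 unscaled, 1692 with the block and 1813 without it on the same samples against 2733 higher in NG. In the joint fit the captured minus whole counts above 0 were, in DRG, 508 unscaled and 41 with the actin ratio against 1903, and in NG 1411 and 81 against 2175. Those below 0 with the actin ratio were 93 against 2017 in DRG and 187 against 2424 in NG, and unscaled arrays gave 203 interactions below 0 against 871.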
